A study of Mus musculus with 8 samples.

Results

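The MHC class II genes described here are Cd74, H2-Aa, H2-Ab1, H2-Eb1, H2-DMa, H2-DMb1 and Ciita, followed through epithelium sorted from mouse prostates. The members were chosen by gene symbol, and all 7 had an identifier among the 55335 identifiers in the expression tables. RNA from sorted epithelial cells (EpCAM+, CD24A+ and CD49F-low by the design text) was sequenced in 8 libraries, 2 libraries (A and B) in each of 4 groups. All groups, controls included, shared 1 engineered background genotype. The PP groups had it alone, and the PPK groups also had Kmt2cPC-/-, a loss of the histone methyltransferase gene Kmt2c. Sham mice were 3.5 months old and mice labelled ADT, the usual short form of androgen deprivation therapy, were 6.5 months old, so treatment and age cannot be told apart. Neither the driver of the Kmt2c loss nor the way ADT was done is stated in the sources used here. Nothing says that A and B came from separate animals, and p-values then cover only the variation among these libraries, which may be technical. The comparisons ask how Kmt2c loss and the treatment with age went with class II gene expression.

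Class II molecules display peptides from the endosomal and lysosomal pathway to CD4 T cells. They are characteristic of dendritic cells, B cells and macrophages, and many epithelia make them when exposed to interferon gamma. The alpha and beta chains of I-A (H2-Aa, H2-Ab1) and the beta chain of I-E (H2-Eb1) pair in the endoplasmic reticulum and are held by the invariant chain (Cd74), which is later cut by lysosomal proteases and exchanged for peptide with the help of H2-DM (H2-DMa, H2-DMb1). Ciita is the coactivator that switches the set on. It does not bind DNA itself but joins the RFX complex, CREB and NF-Y on an X box and a Y box before each class II gene.

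The bases just before the start sites are shown because the class II genes share this promoter module and because the members did not move by the same amount. RefSeq promoter windows (build GRCm38.p6) were used for 4 of the 7 members, H2-Aa, H2-Eb1, H2-DMa and H2-DMb1. Each stretch reads 5′ to 3′ on the gene's strand and ends at the base before the annotated start. The positions are chr17:34287824-34287943 (minus strand) for H2-Aa, chr17:34305747-34305866 (plus strand) for H2-Eb1 and chr17:34153071-34153190 (plus strand) for H2-DMb1. Capitals mark matches to CTGATTGG (the class II Y box) or its core ATTGG, which lies inside CTGATTGG and reads CCAAT on the other strand, and to GNNACNGA, the part of the X box bound by RFX. H2-Aa had no GNNACNGA match. Boxes that differ from these patterns are left unmarked, so lower case does not show that a box is absent.
H2-Aa: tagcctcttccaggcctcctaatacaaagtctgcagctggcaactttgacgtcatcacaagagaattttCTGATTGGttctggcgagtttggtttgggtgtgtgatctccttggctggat
H2-Eb1: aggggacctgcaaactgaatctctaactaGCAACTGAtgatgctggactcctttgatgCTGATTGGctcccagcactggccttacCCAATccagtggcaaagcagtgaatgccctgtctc
H2-DMb1: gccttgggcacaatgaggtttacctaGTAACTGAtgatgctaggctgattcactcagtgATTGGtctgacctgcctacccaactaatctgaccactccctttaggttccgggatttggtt

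The CTGATTGG match spanned bases -51 to -44 from the start in H2-Aa and -62 to -55 in H2-Eb1. Motifs were searched in the 250 bases before each start, of which the last 120 are printed. Of all 32851 such windows of 250 bases, 3.83% held CTGATTGG on either strand, 33.8% held ATTGG and 37.7% held GNNACNGA. In H2-Eb1 the GNNACNGA match began 32 bases before the ATTGG match, and in H2-DMb1 it began 33 bases before it. That pair of motifs on 1 strand, at the spacing read from these 2 genes, stood in 13 of the 32851 windows (0.0396%). The 13 windows belonged to 13 genes, of which 8 had H2 symbols, with H2-Eb2 and the class I genes H2-D1, H2-M3, H2-Q4, H2-Q6 and H2-Q7 beside both members. H2-DMa, with 2 windows in the table, had an ATTGG match in 1 of them, at -198 to -194, and no GNNACNGA match. The interferon response element GAAANNGAA (7.13% of all windows) and the gamma-activated site TTCNNNGAA (7.02%) had no match in the windows of these 4 members. No window of Cd74, H2-Ab1 or Ciita was used, which does not show that none is listed for them. Their promoters, that of the most abundant member Cd74 included, are not described here.

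Libraries held an estimated 17618041 to 25113009 fragments, read from the value of 1 fragment in genes with 1 transcript and 1 exon. The estimated fragments per library were 256 to 2381 for Cd74, 26 to 156 for H2-Aa, 28 to 194 for H2-Ab1, 34 to 234 for H2-Eb1 and 55 to 120 for H2-DMb1. H2-DMa had only 9 to 32 and Ciita 6 to 37, so their values carry the largest counting error. Kmt2c (ENSMUSG00000038056), the targeted gene, was at 13.3 and 13.9 FPKM in PP sham, 8.67 and 8.15 in PPK sham, 10.3 and 9.33 in PP ADT and 6.60 and 6.36 in PPK ADT. It was lower in PPK than in PP at both treatments (limma adjusted p = 0.000795 in sham and 0.00054 in ADT). The epithelial genes Epcam (310 to 565 FPKM) and Cdh1 were high in all 8 libraries. The PPK ADT libraries stood apart in their keratins, with Krt5 at 3243 FPKM against 21.5 to 95.5 in the other group means and Krt8 at 290 against 1263 to 1870. Every result on PPK ADT rests on those 2 libraries, and the part of the keratin change in it was not tested. The 6 fibroblast markers summed to 5.55 to 5.85 FPKM in PP sham, 17.0 to 17.7 in PPK sham, 4.54 to 4.61 in PP ADT and 28.8 to 30.0 in PPK ADT, with the higher sums in PPK at both treatments. The 6 endothelial markers summed to 1.42 to 1.48 in PP sham, 3.39 to 3.78 in PPK sham, 0.404 to 0.452 in PP ADT and 1.17 to 1.48 in PPK ADT. The part of these cell types in the class II values was not tested.

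Class II expression was highest in PP epithelium after ADT. There Cd74, H2-Aa, H2-Ab1 and H2-Eb1 were all higher than in PP sham, by 6.26-fold (H2-Aa) to 9.15-fold (Cd74) in mean FPKM. In sham mice PPK was higher than PP for H2-Aa, H2-Ab1 and H2-Eb1, whereas in ADT mice PPK was lower than PP for Cd74, H2-Aa, H2-Ab1 and H2-Eb1. H2-Ab1 alone among the 5 genes tested was higher in PPK ADT than in PPK sham. H2-DMb1, the beta chain of the peptide-exchange molecule, passed the test in no comparison. FPKM scales the fragments of a gene by transcript length and library size, and fold changes below are differences of log2(FPKM + 1), which understate the change of low genes.

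**Figure D1:**
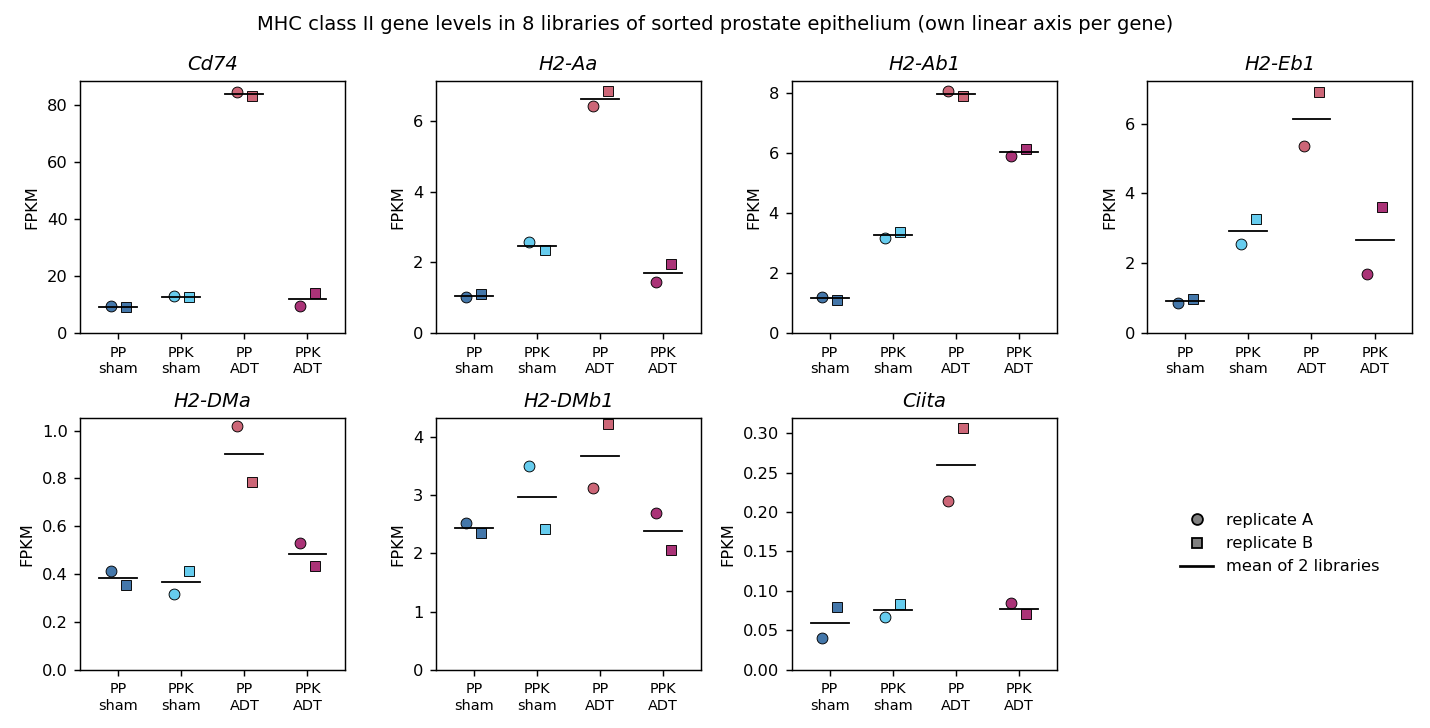
FPKM of each of the 7 class II genes in the 8 libraries, on a linear axis of its own per gene that starts at 0, with replicate A as a circle, replicate B as a square and the mean of 2 libraries as a line. Cd74 stood at 84.7 and 83.3 FPKM in PP ADT against 9.05 to 14.2 in the other 6 libraries, while H2-Ab1 was also higher in PPK ADT than in PPK sham.

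Cd74 (ENSMUSG00000024610, chromosome 18, 60803848 to 60812652, plus strand, GRCm38) was the most abundant member. It was at 9.33 and 9.05 FPKM in PP sham, 12.98 and 12.49 in PPK sham, 84.7 and 83.3 in PP ADT and 9.65 and 14.2 in PPK ADT. Both PP ADT libraries lay far above all others, where Cd74 ranked 407 and 417 from the highest gene, and PPK sham and PPK ADT overlapped. The rise from PP sham to PP ADT was 3.06 ± 0.15 (SE) on the log2 scale, with a limma adjusted p of 1.29e-05. PPK ADT was lower than PP ADT by a log2 fold change of -2.74 ± 0.15 (limma adjusted p = 1.02e-05), a 7.04-fold lower mean FPKM. In sham mice PPK was 1.39-fold above PP with no overlap, but the log2 difference of 0.43 did not pass (limma adjusted p = 0.0792). It passed when only the 2 sham groups were fitted (adjusted p = 0.00895) or when either PPK ADT library was left out of the shared spread (0.00167 without A, 0.00173 without B), and its adjusted p ran up to 0.224 over the 14 alternatives. From PPK sham to PPK ADT the log2 difference of -0.11 did not pass (limma adjusted p = 0.555). Without PPK ADT replicate A it was 0.15, and without replicate B it was -0.37 and passed (adjusted p = 0.00265, against up to 0.749 under the others).

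H2-Aa (ENSMUSG00000036594, chromosome 17, 34282744 to 34287823, minus strand), the I-A alpha chain, was at 1.02 and 1.10 FPKM in PP sham, 2.57 and 2.34 in PPK sham, 6.41 and 6.84 in PP ADT and 1.44 and 1.95 in PPK ADT. No 2 groups overlapped, and the order from the top was PP ADT, PPK sham, PPK ADT and PP sham. PPK sham was 2.32-fold above PP sham in mean FPKM (log2 0.75 ± 0.11 SE, limma adjusted p = 0.00327). PPK ADT was 3.90-fold below PP ADT (log2 -1.51 ± 0.11, limma adjusted p = 3.92e-05). Between PPK sham and PPK ADT it fell by 0.36 on the log2 scale (limma adjusted p = 0.0261). That last call was lost without the filter on low values (adjusted p = 0.0572), with only the PPK groups fitted (0.0670), and without PPK sham replicate A (0.1099), PPK sham replicate B (0.0531) or PPK ADT replicate A (0.119), while the lowest adjusted p over the 14 alternatives was 0.0103.

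H2-Ab1 (ENSMUSG00000073421, chromosome 17, 34257689 to 34269419, plus strand), the I-A beta chain, was at 1.19 and 1.12 FPKM in PP sham, 3.17 and 3.37 in PPK sham, 8.06 and 7.90 in PP ADT and 5.92 and 6.14 in PPK ADT. Again no groups overlapped, but here PPK ADT ranked above PPK sham, the reverse of the order for H2-Aa. H2-Ab1 rose 6.90-fold in mean FPKM from PP sham to PP ADT (log2 2.06 ± 0.067 SE, limma adjusted p = 2.23e-06) and 1.84-fold from PPK sham to PPK ADT (log2 0.72 ± 0.067, limma adjusted p = 0.000118). PPK was 2.83-fold above PP in sham mice (limma adjusted p = 0.000124) and 1.32-fold below PP in ADT mice (limma adjusted p = 0.00386). These 4 calls held under all 14 alternatives run.

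H2-Eb1 (ENSMUSG00000060586, chromosome 17, 34305867 to 34316674, plus strand), the I-E beta chain, was at 0.869 and 0.984 FPKM in PP sham, 2.56 and 3.26 in PPK sham, 5.37 and 6.92 in PP ADT and 1.70 and 3.62 in PPK ADT. PP ADT was highest, PP sham was lowest, and the PPK groups overlapped. PP ADT was 6.63-fold above PP sham (log2 1.88 ± 0.25 SE, limma adjusted p = 0.00138). PPK was 3.15-fold above PP in sham mice (log2 1.02 ± 0.25, limma adjusted p = 0.0267). This call was lost without the filter (adjusted p = 0.0743) and without each sham library (0.108 without PP A, 0.0885 without PP B, 0.0639 without PPK A, 0.121 without PPK B), against a lowest of 0.0056 over the alternatives. PPK ADT was 2.31-fold below PP ADT (log2 -1.01 ± 0.25, limma adjusted p = 0.0134), a call lost without PP ADT replicate B (0.0736) and kept under the other 13 alternatives (lowest 0.0018). Both PP sham libraries were under 1 FPKM, so the gene entered the tests through the other groups.

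H2-DMb1 (ENSMUSG00000079547, chromosome 17, 34153072 to 34160230, plus strand) was at 2.53 and 2.36 FPKM in PP sham, 3.51 and 2.42 in PPK sham, 3.12 and 4.23 in PP ADT and 2.70 and 2.06 in PPK ADT. Each group overlapped its neighbour in the order of means. The nearest to a call was PPK ADT against PP ADT (log2 -0.46 ± 0.18 SE, limma adjusted p = 0.0642), which passed with median-of-ratios scaling (adjusted p = 0.0375) and without PP ADT replicate A (0.0456), PPK sham replicate A (0.0454) or PPK sham replicate B (0.0453), with up to 0.282 under the others. Its partner H2-DMa (ENSMUSG00000037649, chromosome 17, 34119541 to 34139101, plus strand) was at 0.415 and 0.354 in PP sham, 0.318 and 0.414 in PPK sham, 1.02 and 0.787 in PP ADT and 0.529 and 0.436 in PPK ADT. PP ADT lay above the other groups, but H2-DMa reached 1 FPKM in 1 library and so was under the filter of 1 FPKM in 2 libraries. In the fit without the filter it was higher in PP ADT than in PP sham (log2 0.46 ± 0.096, limma adjusted p = 0.0248) and lower in PPK ADT than in PP ADT (log2 -0.36 ± 0.096, limma adjusted p = 0.0389). H2-DMa overlaps Brd2 on the opposite strand, which stood at 23.7 to 29.9 FPKM, and whether fragments were counted by strand is not given in the sources used here.

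Ciita (ENSMUSG00000022504, chromosome 16, 10480059 to 10528418, plus strand), the coactivator, was at 0.0399 and 0.0790 FPKM in PP sham, 0.0674 and 0.0836 in PPK sham, 0.214 and 0.306 in PP ADT and 0.0843 and 0.0709 in PPK ADT. Both PP ADT libraries were above the other 6, which overlapped among their groups. The gene was under the filter. In the fit without it, Ciita was higher in PP ADT than in PP sham (log2 0.25 ± 0.043 SE, limma adjusted p = 0.0124) and lower in PPK ADT than in PP ADT (log2 -0.22 ± 0.043, limma adjusted p = 0.0117), with mean FPKM 4.38-fold higher and 3.35-fold lower. Dexi, on the opposite strand, overlaps Ciita and was at 3.04 to 5.42 FPKM, lowest in PP ADT.

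The other class II genes were at or near 0. H2-Eb2, H2-Oa and the I-E alpha locus H2-Ea-ps, which the annotation calls a polymorphic pseudogene, were listed at 0 in all 8 libraries. H2-Ob, a chain of the H2-DM inhibitor H2-O, reached 0.0267 FPKM at most. H2-DMb2 was listed at 0.192 and 0 FPKM in PP sham, 0 and 0.247 in PPK sham, 0.300 and 0.220 in PP ADT and 0 and 0.0362 in PPK ADT. H2 genes resemble one another, so the sharing of fragments among them is uncertain.

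Counted together, 3 of the 5 tested members were higher in PPK sham than in PP sham and 0 were lower, where 13.7% of all 14000 tested genes were higher and 14.9% lower. In ADT mice 4 of 5 were lower in PPK than in PP and 0 higher, against 27.1% lower and 32.5% higher over all tested genes. From PP sham to PP ADT 4 of 5 were higher and 0 lower, against 19.1% higher and 25.1% lower. From PPK sham to PPK ADT 1 was higher and 1 lower, against 31.9% higher and 30.7% lower. Over all 7 members the median log2 fold change was 0.43, -0.46, 1.88 and -0.11 in these comparisons, beside -0.02, 0.05, -0.07 and 0.00 over all tested genes. The comparisons share groups and are not independent of one another.

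The genotype effect in ADT mice minus that in sham mice tests whether PPK and PP differed in another way after ADT. It was negative and passed for 4 of the 5 tested members, beside 22.8% of all tested genes lower and 30.0% higher. The difference was -3.17 ± 0.21 (SE) on the log2 scale for Cd74 (limma adjusted p = 3.78e-05) and -2.25 ± 0.15 for H2-Aa (limma adjusted p = 4.37e-05). It was -2.03 ± 0.36 for H2-Eb1 (limma adjusted p = 0.0036) and -1.34 ± 0.095 for H2-Ab1 (limma adjusted p = 4.98e-05). For H2-DMb1 it was -0.65 ± 0.25 and did not pass (limma adjusted p = 0.0705), but it passed without PPK sham replicate B (0.0339) and without PP ADT replicate A (0.0482), with up to 0.189 under the others. In the fit without the filter it was -0.25 for Ciita (limma adjusted p = 0.0352) and -0.34 for H2-DMa (limma adjusted p = 0.145).

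**Figure D2:**
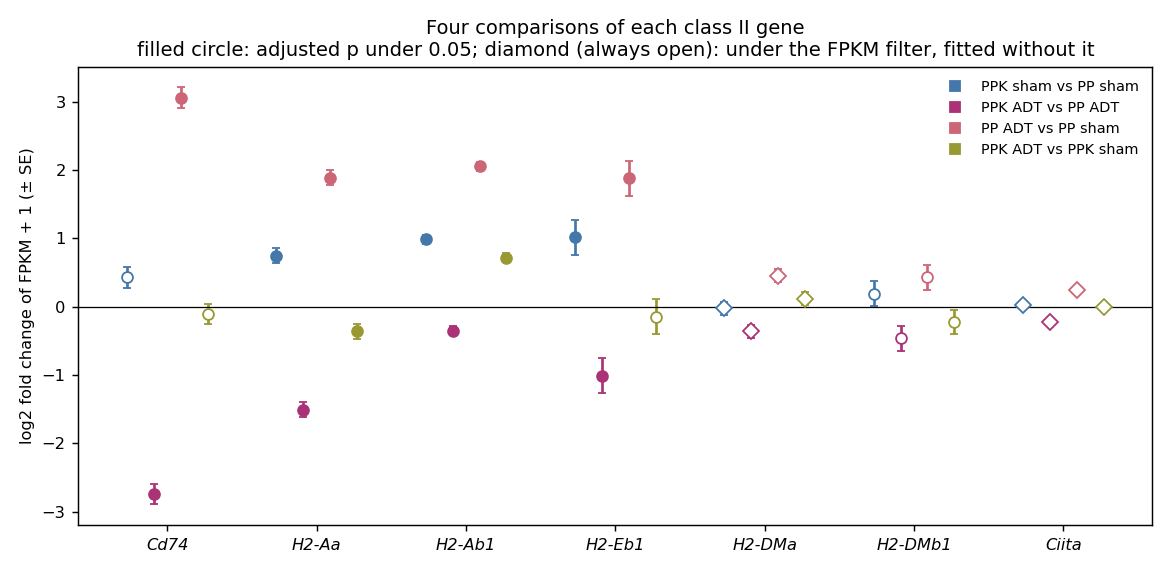
Log2 fold change of FPKM + 1 with its standard error (bars) for the 7 class II genes, 4 comparisons each in the colours of the legend. Filled circles passed a limma adjusted p under 0.05 and open circles did not. Diamonds, drawn unfilled whether or not they passed, are H2-DMa and Ciita, which were under the filter and come from the fit without it. PP ADT against PP sham is above 0 and PPK ADT against PP ADT is below 0 for each gene.

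The members did not keep 1 ratio to each other. Within a library, H2-Aa was 0.694 to 0.985 of H2-Ab1 in the 6 libraries outside PPK ADT, but 0.243 and 0.318 of it in PPK ADT. The ratio of H2-Eb1 to H2-Ab1 ran from 0.666 to 0.968 outside PPK ADT and was 0.287 and 0.590 within it. Both ratios were lowest in PPK ADT, with no overlap with another group. H2-Aa is the chain that pairs with H2-Ab1, whereas H2-Eb1 belongs to the other class II molecule.

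Cd74 was 7.82 and 8.09 times H2-Ab1 in PP sham, 4.10 and 3.70 times in PPK sham, 10.5 and 10.6 times in PP ADT and 1.63 and 2.32 times in PPK ADT. PPK was below PP at both treatments with no overlap. On the log2(FPKM + 1) scale, H2-Ab1 was higher and H2-Aa lower in PPK ADT than in PPK sham, the H2-Aa call being the one that several alternatives end. The ratios themselves were not tested.

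**Figure D3:**
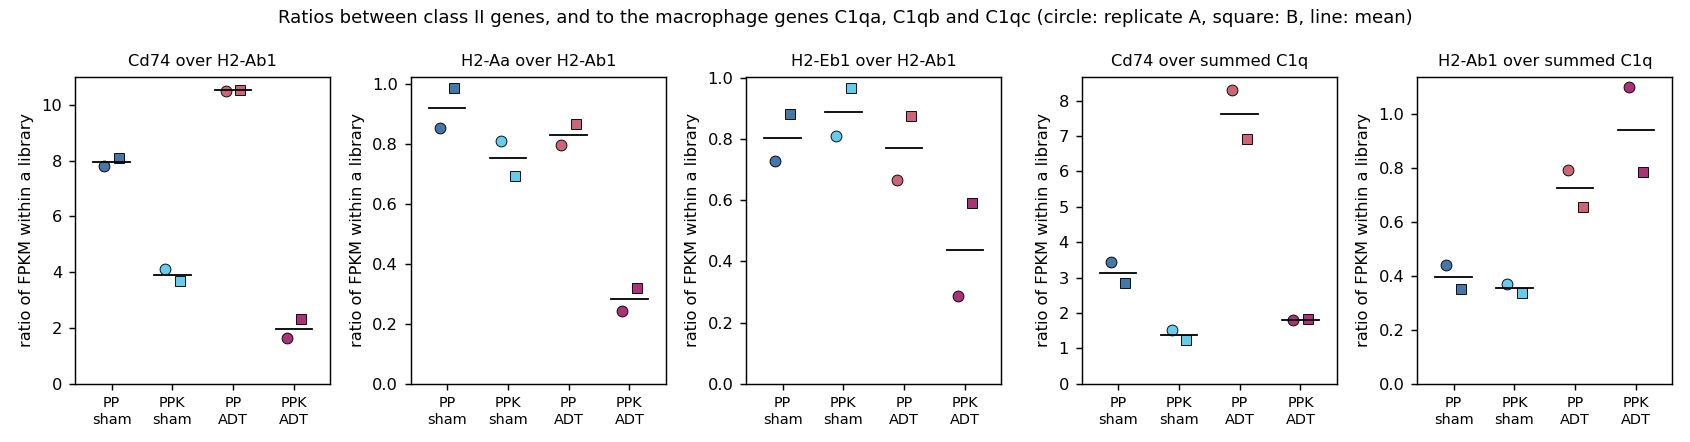
Ratios of FPKM within each library for 3 pairs of class II genes and for Cd74 and H2-Ab1 over the summed C1qa, C1qb and C1qc, with replicate A as a circle, B as a square and the mean as a line; every axis starts at 0. H2-Aa over H2-Ab1 falls to 0.243 and 0.318 in PPK ADT, and Cd74 over the C1q genes reaches 8.31 and 6.91 in PP ADT.

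Markers of the immune cells that make class II were read beside the members. Of 11 dendritic and Langerhans cell markers 10 were under 1 FPKM in every library, and Flt3, Clec9a, Cd209a and Siglech were listed at 0 in all 8. The summed level of the 11 was 0.924 to 1.00 FPKM in PP sham, 1.49 to 1.95 in PPK sham, 1.31 to 1.88 in PP ADT and 63.7 to 71.7 in PPK ADT, the last from Fscn1 (71.3 and 63.0 FPKM), an actin-bundling gene that epithelial cells can also express. All 7 B cell markers were under 1 FPKM in every library, with sums of 0 to 0.0213 in PP sham, 0.0499 to 0.242 in PPK sham, 0.206 to 0.295 in PP ADT and 0.903 to 1.09 in PPK ADT. The 8 T and NK cell markers summed to 0.43 FPKM at most. Ptprc, the pan-leukocyte gene CD45, was at 0.0178 to 0.188 FPKM. Its means were 0.0244, 0.115, 0.144 and 0.0638 in PP sham, PPK sham, PP ADT and PPK ADT. The 10 pan-leukocyte markers summed to 12.3 to 13.4 in PP sham, 10.7 to 11.6 in PPK sham, 16.4 to 18.4 in PP ADT and 7.36 to 8.15 in PPK ADT. In PP sham most of this sum was Lcp1 and Cd52 (means 7.93 and 3.38), which were lower in PPK sham (3.59 and 2.03). Of 6 tested, 3 were higher and 2 lower in PPK sham against PP sham. In PP ADT against PP sham 4 were higher and 1 lower. Over all tested genes the shares were 13.7% and 14.9%, then 19.1% and 25.1%. Those higher passed the filter through groups other than PP sham.

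Macrophage genes were split. The 12 macrophage and monocyte markers summed to 70.0 to 70.5 FPKM in PP sham, 134 to 136 in PPK sham, 136 to 146 in PP ADT and 53.6 to 54.6 in PPK ADT, most of it Cd14 and Cd68, and Adgre1 and Csf1r stayed under 1 FPKM. Of the 8 tested, 6 were higher and 2 lower both in PPK sham against PP sham and in PP ADT against PP sham, and 5 were lower and 1 higher in PPK ADT against PP ADT. Over all tested genes 13.7% were higher and 14.9% lower in the first of these comparisons. The shares were 19.1% higher and 25.1% lower in the second, and 32.5% higher and 27.1% lower in the third. Mrc1 (group means 7.51, 4.32, 2.94 and 0.384 FPKM in PP sham, PPK sham, PP ADT and PPK ADT) and Mertk (4.83, 0.901, 0.461 and 0.172) were the pair lower in PPK sham and in PP ADT than in PP sham, Mertk having passed the filter through PP sham. Lyz2 was highest in PPK ADT (1.73, 7.59, 7.56 and 11.8). Cd68 did not pass in PPK ADT against PP ADT (18.8 and 18.5 FPKM). The complement genes C1qa, C1qb and C1qc, typical of tissue macrophages and chosen among the 12 after their values were seen, summed to 2.71 and 3.18 FPKM in PP sham, 8.54 and 10.03 in PPK sham, 10.2 and 12.1 in PP ADT and 5.40 and 7.84 in PPK ADT. In PPK ADT C1qa was at 1.48 FPKM in replicate A and 3.33 in B, and C1qb at 2.60 and 3.23. C1qc was at 1.32 in A and 1.28 in B, and Lyz2 at 12.3 and 11.3. Cd74, H2-Aa, H2-Ab1 and H2-Eb1 were higher in B, whereas H2-DMa, H2-DMb1 and Ciita were lower in B.

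Cd74 was 8.31 and 6.91 times the summed C1q genes in PP ADT, against 1.24 to 3.44 times in the other groups. H2-Ab1 was 0.336 to 0.440 of the summed C1q genes in sham libraries, 0.791 and 0.655 in PP ADT and 1.10 and 0.783 in PPK ADT. For H2-Aa the ratio was 0.629 and 0.568 in PP ADT, but 0.267 and 0.249 in PPK ADT, where it lay within the sham range of 0.233 to 0.375. In sorted bulk RNA, fewer cells of a type and less RNA per cell cannot be told apart, and the part of macrophage RNA in the class II values was not tested.

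Among the factors that carry Ciita to the promoters, Rfx5 and Nfyb passed in at least 1 comparison. Of the 7 subunits of RFX, CREB and NF-Y 0 passed in PPK sham against PP sham by limma, and 0 had an unadjusted p under 0.05. Over all tested genes 13.7% were higher and 14.9% lower there. Rfx5, the large RFX subunit, was at 7.26 and 6.68 FPKM in PP sham, 8.42 and 6.87 in PPK sham, 9.82 and 9.64 in PP ADT and 5.67 and 7.32 in PPK ADT. PP ADT was highest and did not overlap another group. Rfx5 was higher in PP ADT than in PP sham (log2 0.43, limma adjusted p = 0.0348) and lower in PPK ADT than in PP ADT (log2 -0.53, limma adjusted p = 0.0116). It was the only subunit of the 7 to pass in the latter, beside 32.5% of all tested genes higher and 27.1% lower. The difference of genotype effects for Rfx5 was -0.64 (limma adjusted p = 0.0247). Nfyb, a subunit of NF-Y, fell in ADT against sham in PP (log2 -0.33, limma adjusted p = 0.0214) and in PPK (log2 -0.25, limma adjusted p = 0.0397).

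Most tested genes on the route from interferon gamma to Ciita were lower in PPK than in PP after ADT. Ifng itself was listed at 0 in all 8 libraries. Of the other 9 genes, 8 were lower and 1 (Socs1, an inhibitor of the pathway) higher in PPK ADT against PP ADT. Over all tested genes 27.1% were lower and 32.5% higher. The median log2 fold change was -0.54 for the 9 and 0.05 for all tested genes. Socs1 entered the tests only through PPK ADT and Irf8 only through PP sham, so their directions against those groups were set by the filter. Jak2, a kinase of the receptor, was at 20.6 and 20.6 FPKM in PP sham, 29.8 and 27.9 in PPK sham, 30.0 and 29.7 in PP ADT and 16.2 and 15.4 in PPK ADT. PPK ADT was lowest and did not overlap another group, while PPK sham and PP ADT overlapped. PPK ADT was lower than PP ADT by log2 -0.88 for Jak2, -0.54 for Ifngr2 and -1.16 for Ifngr1, the receptor chains (limma adjusted p from 9.14e-06 to 0.000787). In PPK sham against PP sham 3 were higher, Jak2 and Ifngr1 among them, and 1 lower (Irf8), beside 13.7% higher and 14.9% lower over all tested genes. In PP ADT against PP sham 4 were higher and 2 lower, the latter being Irf8 and Ifngr2, beside 19.1% higher and 25.1% lower over all tested genes.

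Genes of lysosomal processing were split. Of 9 tested, 5 were lower and 3 higher in PPK ADT against PP ADT, beside 27.1% of all tested genes lower and 32.5% higher. Ctss, the protease that trims the invariant chain in antigen-presenting cells, was at 24.3 and 25.3 FPKM in PP sham, 44.8 and 41.4 in PPK sham, 31.1 and 28.3 in PP ADT and 12.1 and 13.3 in PPK ADT. Its highest group was PPK sham, unlike Cd74. In PPK ADT against PP ADT, Ctss was lower by log2 -1.16 (limma adjusted p = 1.44e-05), and so were Sppl2a, which clears the remaining Cd74 fragment (-0.92), and Ctsb (-0.81). Ifi30, the lysosomal thiol reductase, was higher (1.16, limma adjusted p = 0.000117).

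Class I presentation genes were lower in PPK ADT than in PP ADT without exception among the 11 tested, with a median of -1.17. Over all tested genes 27.1% were lower there and 32.5% higher. H2-K1, a class I heavy chain, was at 595 and 583 FPKM in PP sham, 972 and 978 in PPK sham, 643 and 626 in PP ADT and 320 and 322 in PPK ADT. H2-K1 was highest in PPK sham and lowest in PPK ADT. H2-D1, B2m, Tap2, Tapbp, Psmb8, Psmb9 and Nlrc5 also had their highest mean in PPK sham. Tap1 (22.6 FPKM in PP ADT, 21.9 in PPK sham, with overlapping libraries), Psmb10 and Erap1 had theirs in PP ADT. Per length, H2-K1 exceeded H2-Ab1 by 510-fold, 298-fold, 79.5-fold and 53.2-fold in mean ratio in PP sham, PPK sham, PP ADT and PPK ADT. Nlrc5, the class I counterpart of Ciita, was at 4.69 and 4.60 FPKM in PP sham, 11.7 and 11.8 in PPK sham, 11.4 and 11.9 in PP ADT and 7.16 and 7.67 in PPK ADT. Its PPK sham and PP ADT libraries overlapped, whereas those of Ciita did not.

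**Figure D4:**
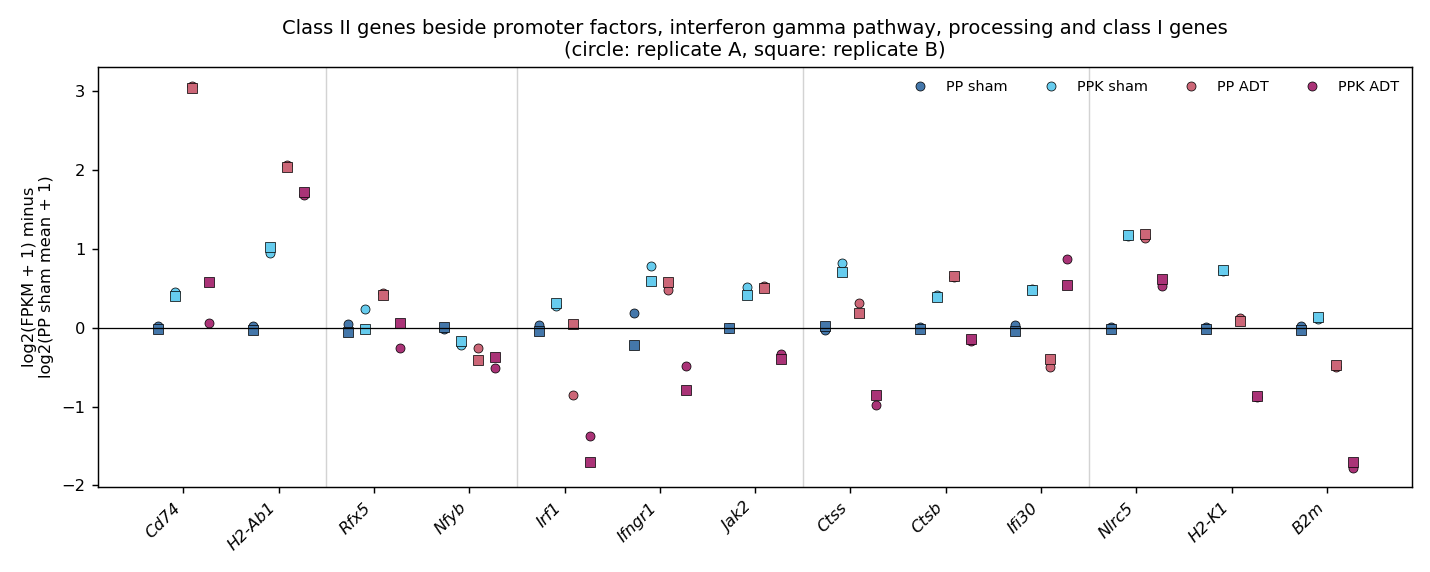
Log2(FPKM + 1) of each library minus that of the PP sham mean for Cd74 and H2-Ab1, 2 promoter factors, 3 genes from interferon gamma to Ciita, 3 lysosomal genes and 3 class I genes, with grey lines between the sets, circles for replicate A and squares for B. In PPK ADT H2-Ab1 stays above the PP sham level while Jak2, Ctss, H2-K1 and B2m lie below it.

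Proteins that meet class II or Cd74 at the cell surface gave no common direction. Cd44, the coreceptor through which Cd74 signals, was at 58.9, 108, 153 and 119 FPKM in the means of PP sham, PPK sham, PP ADT and PPK ADT, and Mif, the cytokine that binds Cd74, was at 104, 119, 121 and 232. In PPK ADT against PP ADT Mif was higher (log2 0.93, limma adjusted p = 1.92e-05) and Cd44 lower (-0.37, limma adjusted p = 7.15e-05), and the other 2 of 4 tested did not pass. Of 5 tested costimulation and checkpoint ligands, 2 were higher (Cd80 and Icosl) and 3 lower in PPK ADT against PP ADT, led by Lgals9 (log2 -2.19, limma adjusted p = 2.55e-07) and Cd274 (-0.84, limma adjusted p = 0.000179). Over all tested genes 32.5% were higher and 27.1% lower in that comparison. Cd80 entered the tests only through its PPK ADT libraries, so its direction was set by the filter. Cd86 and Cd40 stayed under 1 FPKM.

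Over the 8 libraries, Cd74 correlated most closely with H2-Aa (Pearson r = 0.97 on log2(FPKM + 1)), then with Ciita (0.94), H2-DMa (0.91), H2-Eb1 (0.86) and H2-Ab1 (0.71). The lowest pair was H2-Ab1 and H2-DMb1 (0.41). The 8 points share 4 groups, and PP ADT is the highest group for each member. Among other genes of at least 5 FPKM in their highest group, those most like Cd74 were Tagln2 (r = 0.992), Nav2 (0.992), Zfp281 (0.989), Abca1 (0.989) and Vps13c (0.989). Those most like Ciita were Map2k3 (0.977), Ubap1 (0.973), Cdk18 (0.970), Anapc7 (0.969) and Vps13c (0.967).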

How the data were processed

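The authors deposited 1 table of FPKM per library, and FastQC 0.11.2 and build mm10 are named in the submitters' processing notes. Per the labels' protocols, Trizol was used on total RNA and the TruSeq libraries kept the strand. No aligner, quantifier, annotation or strand setting of the counting is given in the sources used here. Organoid libraries are not analysed here, and the shared background genotype and 1 listed gene are not reported here. Summed FPKM ran from 284015 to 333977 per library. No counts are in the tables. Depth was estimated from the value of 1 fragment, and 18.9% to 22.5% of the low values usable for it lay within 0.01 of a whole number of fragments, so no count test was run.

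Symbols came from a list of gene names, which matched 55154 of 55335 identifiers. Gene positions and transcript lengths came from GENCODE M21 (GRCm38). The limma package (3.58.1, R 4.3.3) estimated 4 group means of log2(FPKM + 1) under a variance trend for the 14000 genes with at least 1 FPKM in at least 2 libraries (4 residual and 2.4 prior degrees of freedom). A gene passed with a two-sided Benjamini-Hochberg adjusted p under 0.05 over all of them. The fit was tested on simulated data. Python 3.11.15 with pandas 2.3.3 made the tables, and matplotlib 3.10.9 drew the plots. All members and other class II genes are named. From each other list up to 4 genes with the smallest adjusted p in the comparison described are named, with further genes and the per-library values shown chosen after their values were seen. Likeness was read as the 5 highest r, leaving out class II, predicted and antigen receptor genes. Members and lists were chosen with earlier results of these data known. The 14 alternatives were a pseudocount of 0.1, no filter, median-of-ratios scaling, a fit of only the compared groups, no variance trend, a replicate block and each library left out. Same-lettered libraries deviated together at r of -0.0079 to 0.0566, so letters were not used as pairs.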

Additional observations from a re-analysis of the deposited data

Results flagged for a closer look

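The genotype effect (PPK against PP) differed between ADT and sham mice for 4 class II genes by the test of the difference itself. On the log2(FPKM + 1) scale the ADT effect minus the sham effect was -3.17 for Cd74, -2.25 for H2-Aa, -2.03 for H2-Eb1 and -1.34 for H2-Ab1. Each rests on 2 libraries a group, with limma adjusted p of 3.78e-05, 4.37e-05, 0.0036 and 4.98e-05. For H2-Aa, H2-Eb1 and H2-Ab1 both PPK libraries were above both PP libraries in sham mice and below them in ADT mice.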

How the results depend on the processing

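Cd74, H2-Aa and H2-Ab1 kept their direction and call in PP ADT against PP sham and PPK ADT against PP ADT under all 14 alternatives, and in the difference of genotype effects under all 13 that could be run. With a pseudocount of 0.1 the median log2 fold change of the 7 members was -1.01 in PPK ADT against PP ADT, 2.54 in PP ADT against PP sham and -1.82 for the difference of effects, since low genes are then less compressed. From PPK sham to PPK ADT the members called lower were 0 without the filter and 0 with only those groups fitted. Leaving out each library in turn gave 0 to 2 there, a member median of -0.11 to 0.072, and log2 fold changes of -0.37 to 0.15 for Cd74 and -0.53 to 0.24 for H2-Eb1, both above 0 without PPK ADT replicate A. It gave a member median of -0.63 to -0.38 in PPK ADT against PP ADT and 1.73 to 1.93 in PP ADT against PP sham. In PPK sham against PP sham it gave 2649 to 3778 genes called, the fewest without PP sham replicate A, against 4000 with all libraries, and -0.0082 to 0.39 for H2-DMb1, below 0 without PPK sham replicate A. The library left alone in its group is then assumed to vary like the other groups. The cause of these changes was not tested. Median-of-ratios scaling moved the median of all genes by 0.10 (log2) in PPK ADT against PP ADT and ended no call of a member.

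Letters A and B mark no stated pairing. With the replicate block the genes called were 3755 in PPK sham against PP sham, 8182 in PPK ADT against PP ADT, 6013 in PP ADT against PP sham, 8626 in PPK ADT against PPK sham and 7186 for the difference, and no call of a member changed. Fragments per gene limit Ciita and H2-DMa most.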

Other observations

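Fscn1, an actin-bundling gene counted among the dendritic cell markers, was at 0.463 and 0.404 FPKM in PP sham, 1.05 and 1.09 in PPK sham, 0.503 and 1.14 in PP ADT and 71.3 and 63.0 in PPK ADT. Cd80, a costimulatory ligand, was at 0.0450 and 0.0784 FPKM in PP sham, 0.208 and 0.194 in PPK sham, 0.0144 and 0.136 in PP ADT and 8.41 and 8.03 in PPK ADT. PPK ADT was above PP ADT by 5.25 (log2, limma adjusted p = 8.25e-07) for Fscn1. Cd80 is given as values only, since it passed the filter through PPK ADT alone. The other 10 dendritic cell markers stayed under 1 FPKM in PPK ADT. Cxcr2, a receptor that can pair with Cd74, was at 0.958 and 1.03 FPKM in PPK ADT and at 0.0131 to 0.0928 in the other 6 libraries.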
